A study of Homo sapiens with 4 samples.

Results

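This account concerns 58 human genes that are established or computationally predicted targets of the let-7 microRNAs, outside the best known oncofetal targets. The members were listed by name from general knowledge of let-7 targets, with earlier results of these data known, and were matched by symbol. The list is therefore not independent of the values below. All 58 were found among 19826 gene rows, and 46 of them had a mean of at least 5 over the 4 libraries, as 9324 genes in all did. The cells were BE(2)C, a human neuroblastoma line, carrying an introduced MYCN open reading frame (BE(2)C:MYCN-ORF), and polyA RNA was sequenced 48 hours after transfection. Each of 4 groups had 1 library: siMYCN, an siRNA against MYCN, with a let-7a mimic; the control siRNA siCon with let-7a; siMYCN with the control mimic miRCon; and siCon with miRCon. All 4 groups share the line, the MYCN open reading frame and a double transfection, and a line is a single cell model without the other cells of a tumour.

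A let-7 microRNA guides an Argonaute protein to messenger RNAs through its seed, the bases near its 5′ end, which pair mostly with the 3′ untranslated region (3′ UTR). A bound message is deadenylated, decays and is translated less, so a target tends to have less mRNA when let-7 is plentiful. In neuroblastoma let-7 is known as a brake on MYCN and LIN28B, and LIN28B in turn blocks the maturation of let-7. Most targets of a microRNA change by only a small amount.

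The mature let-7a sequence (RefSeq, GRCh38.p14, from the locus at chr9:94175962-94175983, plus strand) is shown first because every match below is read from it. Capitals mark the seed, bases 2 to 8.
let-7a: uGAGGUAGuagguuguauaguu
In RefSeq, 11 human mature microRNAs have this same seed, among them let-7b, let-7g and miR-98. Searched on the transcript strand, an 8mer match is CTACCTCA, a 7mer-m8 match is CTACCTC without the final A, and a 7mer-A1 match is TACCTCA without the first C. Each match was counted once, in its longest class.

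The longest 3′ UTR of each gene (GENCODE 29, GRCh38) was scanned, and all 58 members had one. Of the 58, 32 had an 8mer as their best match, 18 a 7mer-m8, 5 a 7mer-A1, and 3 (GNPTAB, LRIG3 and PLAGL1) had none of these. Predicted targets are listed because of such matches, so this share follows from how the list was made. Over all tested genes with a 3′ UTR, 19.0% held a match of 7 or 8 letters and 4.42% an 8mer. Members had longer 3′ UTRs, with a median of 2501 bases against 1511 bases over all tested genes. Among 3′ UTRs of 2000 to 4000 bases, 19 of 19 members held a match, against 24.1% of all tested genes.

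The windows below show the 9 members that were lowest with let-7a in both siRNA states, each at 1 or more matches of its best class. Each window runs 5′ to 3′ along the transcript for 22 bases, the span a let-7a molecule can cover, and capitals mark the letters of the match class, in an 8mer the 7 that pair with the seed and the A opposite base 1.
FIGN, 8mer, chr2:163608143-163608164, minus strand: ctcctgctttatttCTACCTCA
FIGN, 8mer, chr2:163604648-163604669, minus strand: ctttataaccatttCTACCTCA
FIGN, 8mer, chr2:163604546-163604567, minus strand: tgaacttgaacagtCTACCTCA
HIC2, 8mer, chr22:21450883-21450904, plus strand: aggaccccctccccCTACCTCA
BACH1, 8mer, chr21:29344800-29344821, plus strand: gaacccttgatttcCTACCTCA
BACH1, 8mer, chr21:29345100-29345121, plus strand: tacaagtaactacaCTACCTCA
GXYLT1, 8mer, chr12:42086806-42086827, minus strand: tttaaacttgtcttCTACCTCA
YOD1, 8mer, chr1:207048984-207049005, minus strand: agggttgaagcctaCTACCTCA
HIF1AN, 8mer, chr10:100553808-100553829, plus strand: catgttgaaaatatCTACCTCA
MAPK6, 8mer, chr15:52065473-52065494, plus strand: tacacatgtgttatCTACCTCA
NAP1L1, 8mer, chr12:76047221-76047242, minus strand: tactgtttacctaaCTACCTCA
RAB40C, 7mer-m8, chr16:628787-628808, plus strand: actggtgctcacctCTACCTCc
All of these lie in annotated 3′ UTRs. FIGN held 6 matches of 7 or 8 letters, HIC2 4, HIF1AN and NAP1L1 3 each.

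Of the 25 measured members with an 8mer, 7 were not lower with let-7a in both states, and 4 of these 7 are shown for contrast, chosen after their values were seen. Their windows end in the same 8 letters as the 8mer windows above.
LRIG2, 8mer, chr1:113124142-113124163, plus strand: taattttgcatttaCTACCTCA
ZNF689, 8mer, chr16:30603768-30603789, minus strand: tgacagggagctcaCTACCTCA
GALNT1, 8mer, chr18:35709800-35709821, plus strand: aaggattgactgggCTACCTCA
CLDN12, 8mer, chr7:90413947-90413968, plus strand: tttgtgactttcttCTACCTCA

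Values are back-transformed from the deposited natural logs and resemble TPM, so they are called TPM-like values; they keep no read depth, and no counting error can be given. Their sums ranged from 855811 to 862049 per library. MYCN, the gene targeted by the siRNA, was at 1197.2 and 1238.3 in the siMYCN libraries against 1432.8 and 1448.5 in the siCon libraries, a lower value in both siMYCN libraries, in which the introduced reading frame and the cells' own gene cannot be told apart. All 8 noradrenergic neuroblastoma markers were at or above a mean of 5, and their sum was 2553 with let-7a against 1844 with miRCon in siMYCN cells and 2489.5 against 2215 in siCon cells. The 3 blood markers and 3 of 4 epithelial markers were below that mean, with HBB and CDH1 at 0 in every library. Of 4 fibroblast markers, 3 were at or above it and COL1A2 was at 0.185 or less in every library; their sum was 138 with let-7a against 175 with miRCon in siMYCN cells, and 133 against 163 in siCon cells. The neuroblastoma sum was higher and the fibroblast sum lower with let-7a in both states, and their part in the results below was not tested. In bulk RNA, fewer cells that express a gene and less RNA per cell cannot be told apart.

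An effect below is a log2 fold change of (value + 1), which understates the change of low genes. Each let-7a effect was measured once in siMYCN cells and once in siCon cells, in pairs that share no library. The test was limma-trend with siRNA and mimic as additive terms over 9324 genes, which leaves 1 residual degree of freedom. Its SE and p therefore rest on how far the pairs depart from additivity, moderated toward other genes, and not on replicates. Changes that 4 single libraries show have no replicate check.

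With the let-7a mimic the members were mostly lower, by small amounts, in both siRNA states. Of the 46 measured, 33 were below 0 in both pairs, against 33.5% of all tested genes, 3 were above 0 in both, against 22.6%, and 10 had opposite signs. Their median let-7a effect was -0.26 with siMYCN and -0.17 with siCon, beside -0.039 and -0.018 over all tested genes. Over all 58 members, with no filter, the medians were -0.22 and -0.16. In 26 of 46 members both let-7a libraries lay below both miRCon libraries, against 16.2% of all tested genes; in 1, LRIG2, both lay above, against 8.90%.

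The changes were seldom large. No member (0 of 46) was at least 1.5-fold lower in both pairs, as were 0.257% of all tested genes, and none (0) was 1.5-fold higher in both, as were 0.204%. At a smaller size, a log2 effect of at least 0.32 away from 0 in both pairs, 9 of 46 members were lower, against 2.03% of all tested genes, and 0 were higher, against 1.47%. With a pseudocount of 5 in place of 1, which draws effects toward 0, these 9 became 3 of 46, beside 1.02% of all tested genes. With values rescaled by median ratios they became 6 of 46, beside 1.67%. By limma, 0 members and 0% of all tested genes passed a Benjamini-Hochberg adjusted p of 0.05 for let-7a. At an unadjusted limma p under 0.05, 11 of 46 members were lower, against 4.71% of all tested genes, and 0 were higher, against 2.77%.

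**Figure D1:**
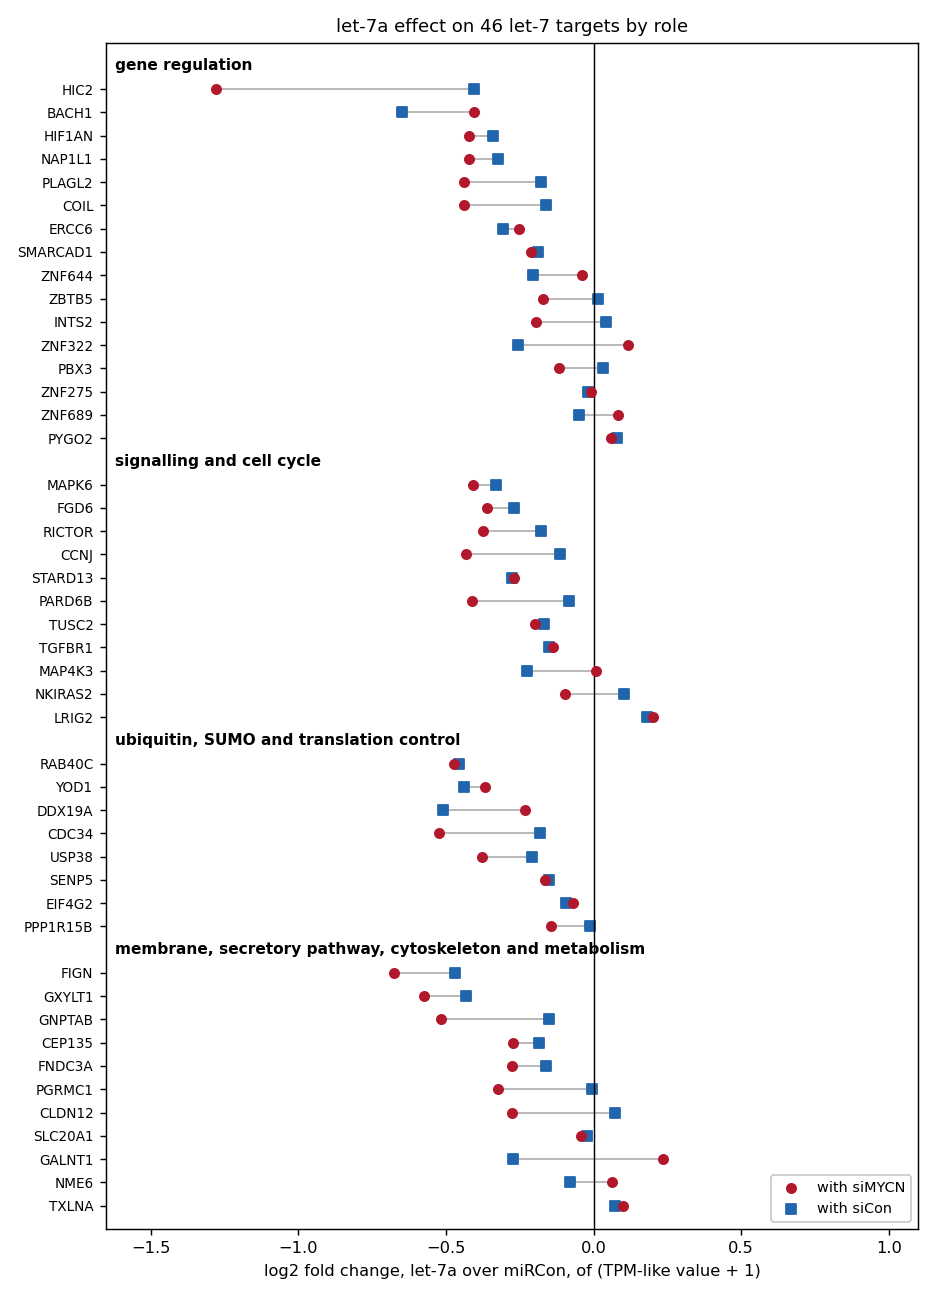
Each row is 1 of the 46 measured targets, grouped by role, and the x axis is the log2 fold change of let-7a over miRCon, with siMYCN as red circles and with siCon as blue squares. Most points lie left of 0, HIC2 has the widest gap between its points, and LRIG2, TXLNA and PYGO2 lie right of 0 in both states.

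Among the members that regulate genes, 16 of 21 were measured, 10 were below 0 in both pairs, 1 was above 0 in both and 5 were mixed. HIC2, a zinc-finger repressor, had 7.55 TPM-like units with let-7a against 19.8 with miRCon in siMYCN cells, and 12.7 against 17.1 in siCon cells. It was the member with the largest let-7a effect in these libraries, -1.28 and -0.41, a mean of -0.84 ± 0.24 (SE of the additive limma model, 4 libraries; unadjusted p = 0.0161, adjusted p = 0.663). The siMYCN library with let-7a was well below the other 3, and the 2 groups of mimic did not overlap.

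BACH1, a heme-regulated transcriptional repressor, had 21.2 with let-7a against 28.4 with miRCon in siMYCN cells, and 18.7 against 29.9 in siCon cells. The let-7a libraries were both below both miRCon libraries, and the effects were -0.40 and -0.65, a mean of -0.53 ± 0.13 (limma SE; adjusted p = 0.663). HIF1AN, the asparagine hydroxylase that restrains hypoxia-inducible factor, had 17.3 against 23.5 in siMYCN cells and 15.1 against 19.4 in siCon cells. Its effects were -0.42 and -0.34, again without overlap between mimics.

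NAP1L1, a histone chaperone, was the most abundant measured member and had 201 with let-7a against 269 with miRCon in siMYCN cells, and 169.8 against 212 in siCon cells. Its effects were -0.42 and -0.32, and their mean of -0.37 had the smallest limma SE of the measured members, 0.068 (unadjusted p = 0.00236, adjusted p = 0.663). In linear terms the changes of NAP1L1 were -25.4% and -20.1%. PLAGL2, a zinc-finger transcription factor, and COIL, the scaffold of Cajal bodies, both had -0.44 with siMYCN and then -0.18 (PLAGL2) and -0.16 (COIL) with siCon. SMARCAD1, a chromatin remodeller, had -0.21 and -0.19.

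ERCC6, a remodeller of transcription-coupled DNA repair, had 4.37 against 5.39 in siMYCN cells and 5.33 against 6.83 in siCon cells. Its effects were -0.25 and -0.31, at levels near the filter. Several zinc-finger genes of this group lay near 0: ZNF275 had -0.013 ± 0.12 over both pairs, ZNF689 0.018 ± 0.15, ZBTB5 -0.078 ± 0.17 and ZNF644 -0.12 ± 0.15 (limma SE). The homeodomain gene PBX3 had -0.12 and 0.033, and INTS2, a subunit of the Integrator complex, -0.20 and 0.044. PYGO2, a co-activator of Wnt target genes, was at 0.060 and 0.080, within its limma SE of 0.11.

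In the group of signalling and cell cycle genes, 11 of 13 were measured, 8 were below 0 in both pairs, 1 above 0 in both and 2 mixed. MAPK6, an atypical MAP kinase, had 43.3 with let-7a against 57.8 with miRCon in siMYCN cells, and 49.1 against 62.0 in siCon cells. Both let-7a libraries were below both miRCon libraries, with effects of -0.41 and -0.33 and a mean of -0.37 ± 0.095 (limma SE; unadjusted p = 0.0103, adjusted p = 0.663). STARD13 had 8.73 against 10.7 in siMYCN cells and 10.2 against 12.5 in siCon cells, with effects of -0.27 and -0.28.

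FGD6 had -0.36 and -0.27, RICTOR, a subunit of an mTOR complex, -0.38 and -0.18, and CCNJ, a cyclin, -0.43 and -0.11. PARD6B, a cell polarity protein, was at -0.41 with siMYCN and -0.083 with siCon. TGFBR1, a receptor kinase for TGF-beta, had -0.14 and -0.15, and TUSC2 -0.20 and -0.17. MAP4K3, a protein kinase, had 0.0080 and -0.23, and NKIRAS2, a Ras-like inhibitor of NF-kappaB signalling, -0.096 and 0.10. LRIG2, a membrane protein that modulates receptor tyrosine kinases, had 10.02 with let-7a against 8.58 with miRCon in siMYCN cells, and 8.92 against 7.76 in siCon cells. It was thus higher with let-7a in both states, at 0.20 and 0.18, by about its limma SE of 0.18, although its 3′ UTR holds the 8mer shown above.

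The members that act in ubiquitin, SUMO and translation control were all 8 measured, and all 8 were below 0 in both pairs. Their median effect over both pairs was -0.32, beside -0.031 over all tested genes, and it was -0.29 after rescaling. In 7 of the 8, all but the SUMO protease SENP5, both let-7a libraries lay below both miRCon libraries, as in 16.2% of all tested genes. These counts were not repeated for this group after rescaling. PPP1R15B was only just below 0 with siCon, at -0.013, and rescaling moved the siCon median over all tested genes from -0.018 to 0.0069. RAB40C, a Rab-family adaptor of a ubiquitin ligase, had 8.21 with let-7a against 11.8 with miRCon in siMYCN cells, and 6.78 against 9.66 in siCon cells. These are nearly equal effects of -0.47 and -0.45, and the 3′ UTR of RAB40C holds a single 7mer-m8 match.

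YOD1, a deubiquitinase, had 20.2 against 26.3 in siMYCN cells and 19.96 against 27.4 in siCon cells, effects of -0.37 and -0.44 without overlap. DDX19A, an RNA helicase, had 12.1 against 14.4 in siMYCN cells and 12.1 against 17.7 in siCon cells, effects of -0.23 and -0.51. CDC34, a ubiquitin-conjugating enzyme, had -0.52 with siMYCN and -0.18 with siCon, and USP38, a deubiquitinase, -0.38 and -0.21. The translation factor EIF4G2 and PPP1R15B, which directs a phosphatase to a translation initiation factor, lay close to 0, at -0.082 ± 0.074 and -0.078 ± 0.078 over both pairs (limma SE).

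Of the 16 members of the membrane, secretory pathway, cytoskeleton and metabolism, 11 were measured, with 7 below 0 in both pairs, 1 above 0 in both and 3 mixed. FIGN, a microtubule-severing ATPase, had 4.18 with let-7a against 7.28 with miRCon in siMYCN cells, and 5.16 against 7.54 in siCon cells. Its effects were -0.68 and -0.47, and of all measured members its weaker effect was the furthest below 0, with a mean of -0.57 ± 0.21 (limma SE; unadjusted p = 0.0396, adjusted p = 0.663). In percent, the changes of FIGN were -42.6% and -31.5%, at a mean level only just above the filter.

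GXYLT1, a glycosyltransferase that extends sugars on Notch, had 12.4 with let-7a against 19.0 with miRCon in siMYCN cells, and 18.9 against 25.8 in siCon cells. Its effects were -0.57 and -0.43, a mean of -0.50 ± 0.14 (limma SE; adjusted p = 0.663). The centriole gene CEP135 had -0.27 and -0.19, FNDC3A -0.27 and -0.16, and PGRMC1, a heme-binding membrane protein, -0.32 and -0.0046. TXLNA, a syntaxin-binding protein, was at 44.0 against 40.9 in siMYCN cells and 40.0 against 38.0 in siCon cells, and so slightly higher with let-7a, at 0.10 and 0.072. SLC20A1, a phosphate transporter, lay near 0 at -0.044 and -0.023, and its mean was 0.0005 after rescaling. NME6, of the nucleoside diphosphate kinase family, had 0.061 and -0.081.

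**Figure D2:**
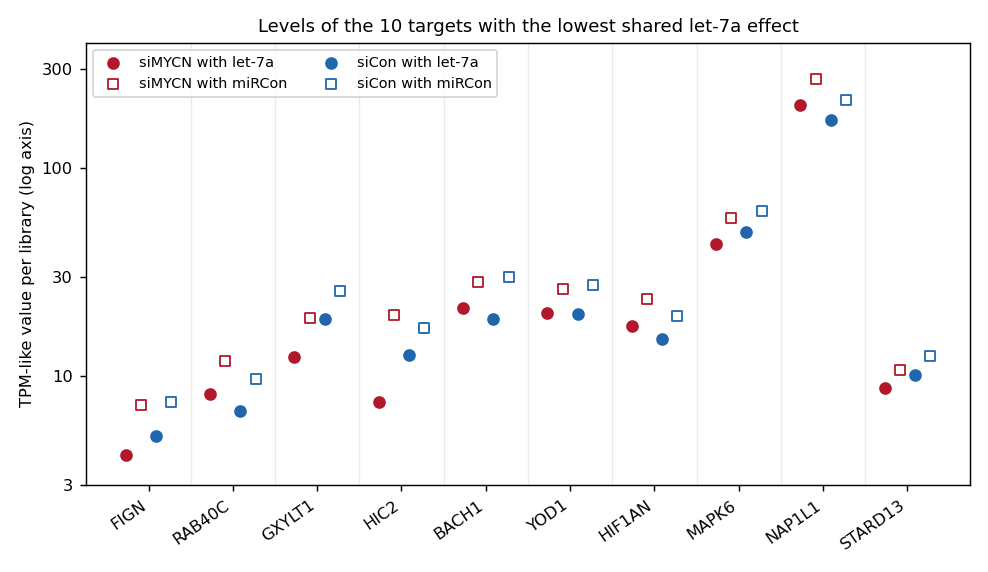
TPM-like values on a log axis in each of the 4 libraries for the 10 targets with the lowest shared let-7a effect, with siMYCN in red, siCon in blue, let-7a as filled circles and miRCon as open squares. In each target the filled circle of a siRNA state lies below its open square, and NAP1L1 stands highest, between 169.8 and 269.

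The 12 members under a mean of 5 carry no call. Their means ran from 0.0069 for ACVR1C, a type I receptor kinase, to 2.15 for LRIG3. SALL4, a stem cell transcription factor, was listed at 0.098 in siMYCN cells with let-7a, 0 with siMYCN and miRCon, 0 with siCon and let-7a and 0.083 with siCon and miRCon. ACVR1C was listed at 0.028 in siMYCN cells with let-7a and 0 in the other libraries. PLAGL1, GATM, E2F6, XKR8 and SURF4 had means under 1 as well. Of the other 5, NR6A1, an orphan nuclear receptor with 5 matches, had 1.34 against 1.84 in siMYCN cells and 1.58 against 1.93 in siCon cells, and LRIG3 had 1.18 against 2.09 and 2.33 against 3.01. PBX2, C14orf28 and RDX had means of 1.29 to 2.10, with let-7a effects of opposite sign in PBX2 and C14orf28 and above 0 in both pairs in RDX. SURF4, a cargo receptor of the secretory pathway, and RDX, which links membrane to actin, are known as broadly expressed genes, and their low values here carry no weight in the results.

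Effects in the 2 siRNA states went together across the 46 measured members (Pearson 0.53, Spearman 0.51) more than across all tested genes (Pearson 0.12, Spearman 0.13). These are correlations across genes, which are not independent replicates, and no test was made of them. Members had lower medians than all genes at each level of expression: -0.28 beside -0.0093 at means from 5 to below 10, -0.25 beside -0.027 from 10 to below 20, -0.17 beside -0.038 from 20 to below 50, and -0.16 beside -0.031 at 50 or more. At the lowest of these levels 2 of 7 members were at least 0.32 below 0 in both pairs, against 3.82% of all genes, and at the highest 2 of 9 were, against 0.630%. Over all tested genes, the median gap between a gene's 2 let-7a effects was 0.31 at the lowest of these levels and 0.12 at the highest.

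**Figure D3:**
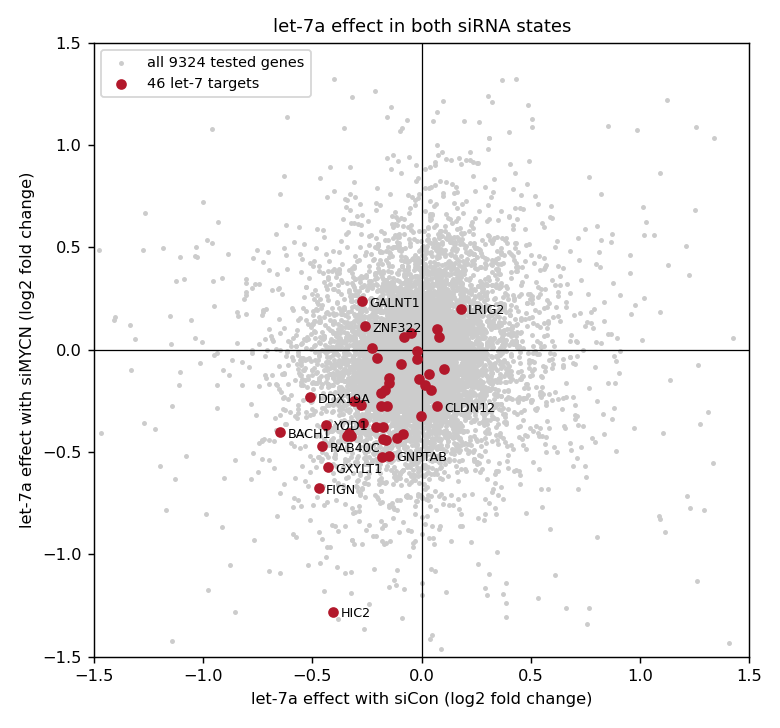
Each point is a gene, with its let-7a effect with siCon on the x axis and with siMYCN on the y axis, both as log2 fold changes; grey points are all 9324 tested genes and red points the 46 measured targets, and 36 grey points lie beyond the axes at 1.5. The red points gather at the lower left, where 33 of 46 have both effects below 0.

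The let-7a effect was also set beside the seed matches. The 25 measured members whose best match was an 8mer had a median effect over both pairs of -0.28, the 16 with a 7mer-m8 had -0.17 and the 4 with a 7mer-A1 -0.077. The same classes over all tested genes had -0.084 (394 genes), -0.062 (635 genes) and -0.059 (667 genes), and genes with no match -0.023. Of the 9 members at least 0.32 below 0 in both pairs, 8 had an 8mer and RAB40C a 7mer-m8. By number of matches, 24 members with 1 match had a median of -0.13, 17 with 2 had -0.20 and 4 with 3 or more had -0.48, beside -0.061, -0.081 and -0.14 over all tested genes. Those 4 were FIGN, HIC2, HIF1AN and NAP1L1, and all 4 were at least 0.32 below 0 in both pairs. NAP1L1 only just reached this size, at -0.322 with siCon against a cut-off of 0.3219. Matches were counted in the longest 3′ UTR, of 11861 bases in HIF1AN and 11842 bases in NAP1L1, and use of these long forms by the cells was not measured. Medians by number of matches were not repeated with the transcript of most coding sequence. GNPTAB, which builds the lysosomal sorting tag, had no match in its longest 3′ UTR and effects of -0.52 and -0.15. These medians describe the members and were not tested, and longer 3′ UTRs hold more matches of any word.

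**Figure D4:**
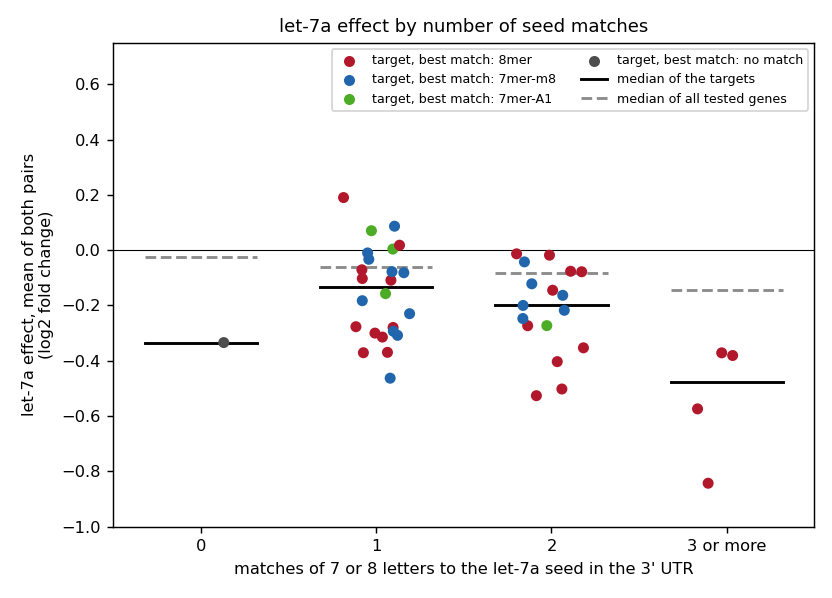
Each dot is a measured target placed by its number of 7-letter or 8-letter seed matches (x axis) and its mean let-7a effect over both pairs (y axis, log2 fold change), coloured by its best match; solid lines are medians of the targets and dashed lines medians of all tested genes. The 4 targets with 3 or more matches lie between -0.37 and -0.84, and the solid line lies below the dashed line in each column.

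The let-7a effect was lower with siMYCN than with siCon in 30 of 46 members, against 52.4% of all tested genes, and the median difference, siMYCN minus siCon, was -0.079 beside -0.015. A difference of at least 0.32 in this direction was seen in 5 of 46 members, against 15.8% of all tested genes, and in the other direction in 2, against 13.4%. These differences have no test, since they use the degree of freedom that stands for error. The lowest were HIC2 (-0.87), GNPTAB (-0.37) and CLDN12 (-0.35), and the highest GALNT1 (0.51), ZNF322 (0.37) and DDX19A (0.28). GALNT1, which starts O-linked glycosylation, had 27.7 with let-7a against 23.4 with miRCon in siMYCN cells and 28.8 against 35.03 in siCon cells. ZNF322, a zinc-finger gene, had 14.5 against 13.3 in siMYCN cells and 10.4 against 12.6 in siCon cells. CLDN12, a claudin, had 61.9 against 75.2 in siMYCN cells and 58.3 against 55.5 in siCon cells.

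The siMYCN effect on the members went both ways. Over 46 measured members, 19 were lower with siMYCN in both mimic states, against 27.4% of all tested genes, 19 were higher in both, against 43.2%, and 8 were mixed. The median over both pairs was 0.016, beside 0.056 over all tested genes, and with values rescaled by median ratios it was -0.044, so its sign depended on the scaling. At least 1.5-fold in both pairs, 1 member was lower (FGD6), against 1.61% of all tested genes, and 1 was higher (PYGO2), against 2.85%. At a log2 effect of 0.32 or more, 3 were lower, against 5.79%, and 3 were higher, against 10.7%.

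The Wnt co-activator PYGO2 rose with siMYCN. With let-7a it had 44.7 in siMYCN cells against 25.7 in siCon cells, and with miRCon 42.9 against 24.3. Both siMYCN libraries were well above both siCon libraries, and the effects of 0.78 and 0.80 were nearly equal, with a mean of 0.79 ± 0.11 (limma SE; adjusted p = 0.038). It was the only member called, 1 of 46, against 2.07% of all tested genes called higher; 0 members were called lower, against 1.36%. Over all tested genes limma called 193 higher and 127 lower, and after rescaling 343 higher and 408 lower. The call of PYGO2 was lost without an expression filter (adjusted p = 0.369) and in limma without a trend (adjusted p = 0.129), while the effect itself stayed at 0.79.

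GNPTAB had 21.3 in siMYCN cells against 14.4 in siCon cells with let-7a, and 31.0 against 16.1 with miRCon. Its siMYCN effects were 0.53 and 0.90, with a mean of 0.72 ± 0.15 that did not pass limma (adjusted p = 0.0651) but did after rescaling (adjusted p = 0.0469). TGFBR1 had 22.7 against 17.8 with let-7a and 25.1 against 19.8 with miRCon, and SENP5 48.1 against 39.1 and 54.0 against 43.6. Their effects were 0.34 and 0.32 for TGFBR1 and 0.29 and 0.30 for SENP5. RAB40C (0.24 and 0.26) and NAP1L1 (0.24 and 0.34) were higher with siMYCN as well as lower with let-7a, so that of the 4 libraries siMYCN with miRCon held the most RNA of both.

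FGD6 had 7.83 in siMYCN cells against 13.4 in siCon cells with let-7a, and 10.3 against 16.3 with miRCon. It was the lowest member for siMYCN, at -0.70 and -0.61, a mean of -0.66 ± 0.16 that did not pass limma (adjusted p = 0.0807). SLC20A1 had 45.8 against 63.7 with let-7a and 47.2 against 64.7 with miRCon, effects of -0.47 and -0.45 that did not pass (adjusted p = 0.0615 in limma) but did after rescaling (adjusted p = 0.030) and among genes with a mean of at least 20 (adjusted p = 0.045). GXYLT1 was lower with both treatments, with siMYCN effects of -0.56 and -0.42, and its value in siMYCN cells with let-7a was 12.4 against 25.8 with neither. INTS2 had 22.3 against 30.2 with let-7a and 25.6 against 29.3 with miRCon. ERCC6 (-0.24 and -0.29) and STARD13 (-0.20 and -0.21) complete the 6 lowest.

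**Figure D5:**
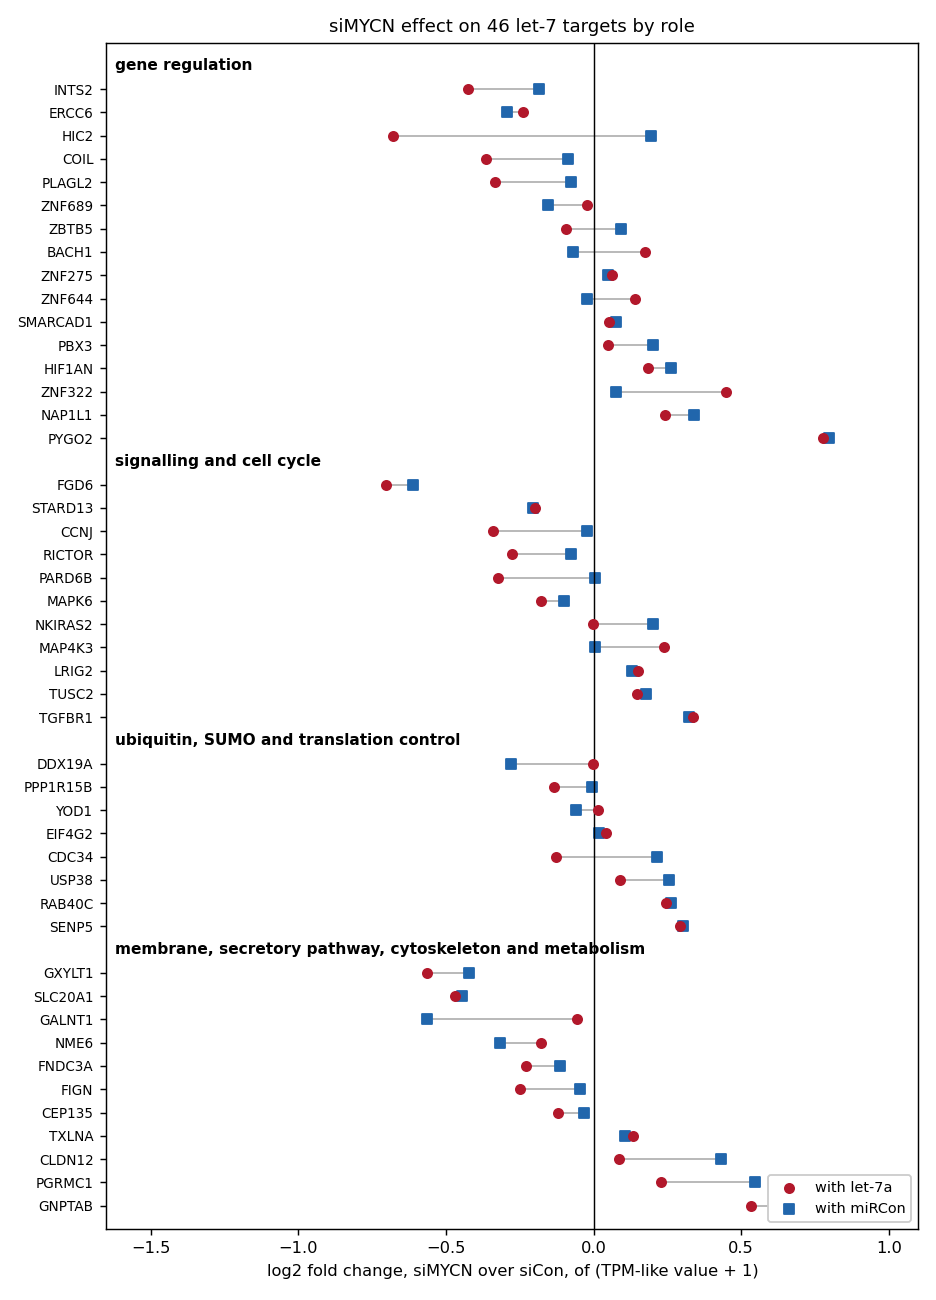
Rows are the 46 measured targets grouped by role, and the x axis is the log2 fold change of siMYCN over siCon, with let-7a as red circles and with miRCon as blue squares. Points lie on both sides of 0 in every group; PYGO2 is farthest right in both mimic states among the genes of its group, and FGD6 farthest left in its own.

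Set side by side over the 4 libraries, a member's lowest value fell most often in a let-7a library. It fell in siMYCN cells with let-7a in 20 of 46 members, against 27.0% of all tested genes, and in siCon cells with let-7a in 17, against 29.8%. It fell in siMYCN cells with miRCon in 3 members, against 16.4% of all tested genes, and in siCon cells with miRCon in 6, against 26.7%. The highest value fell in siMYCN cells with miRCon in 19 members, against 32.8% of all tested genes, and in siCon cells with miRCon in 21, against 22.7%. It fell in siMYCN cells with let-7a in 5 members, against 27.1% of all tested genes, and in siCon cells with let-7a in 1, against 17.4%.

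Another 25 genes of the let-7 pathway, mostly the better known targets such as LIN28B and DICER1, gave 18 that were measured. Of these 18, 13 were below 0 with let-7a in both pairs, against 33.5% of all tested genes, and 2 above 0 in both, against 22.6%. At least 0.32 below 0 in both were 7, against 2.03%, and 0 were called by limma, against 0%. Their medians were -0.34 with siMYCN and -0.10 with siCon, beside -0.26 and -0.17 for the 46 members, and no test of the difference between these lists was made. With siMYCN, 1 of the 18 was called higher, CCND1, a G1 cyclin, against 2.07% of all tested genes. Called lower was 1, IGDCC3, a membrane protein, against 1.36%.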

How the data were processed

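PolyA RNA of BE(2)C:MYCN-ORF cells was sequenced in 4 libraries, 1 for each combination of siRNA and mimic, with groups from the labels. The authors deposited 1 table of 19837 rows, with values on the natural log scale in a column for each library; exp(x) - 1 summed to between 855811 and 862049, where base 2 would give between 143211 and 147588. Per the submitters' processing notes, the build was GRCh38 and the tools included Salmon 0.3.2 and HISAT 0.1.6, in roles not known here. How logs were taken, which annotation was used and what was filtered is not stated. Read depth is unknown, and values of paralogs, overlapping and antisense genes are uncertain to that extent.

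Vector rows (11) were set apart. Of the remaining rows, 28 carried symbols turned into dates and were not named. Genes with a mean of at least 5 were tested with limma 3.58.1 in R 4.3.3 on log2(value + 1) in an additive model of siRNA and mimic, with Benjamini-Hochberg adjustment over 9324 genes; a call is an adjusted p under 0.05. Prior degrees of freedom were 4.30 beside 1 residual. The fit was checked on simulated data with the same noise for every gene and with changes larger than any measured member's mean effect. That check therefore does not cover effects as small as those reported. The match search was checked on a made sequence. Counts by size needed both pairs past 1.5-fold, or past a log2 effect of 0.32. Seed matches were searched in 3′ UTRs built from GENCODE 29. Medians by list are descriptions without a test. Each choice was varied in turn: the pseudocount (0.1 or 5), the filter (none, or a minimum mean of 20), the scaling (median ratios), limma's trend (off), the size rule (log2 0.32, or a fold of 2) and the transcript whose 3′ UTR was scanned (that with the most coding sequence); robust moderation was added after seeing the data.

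Members and lists were chosen with earlier results of these data known. Named members were the 10 lowest and up to 5 highest by the shared let-7a effect (the pair effect nearer 0, where both have 1 sign; only 3 were above 0), the 6 lowest and 6 highest for siMYCN, the 3 lowest and 3 highest differences, those called, and SALL4 and ACVR1C; others are named by role. Python 3.11.15, pandas 2.3.3, NumPy 2.4.6 and matplotlib 3.10.9 were used.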

Additional observations from a re-analysis of the deposited data

Results flagged for a closer look

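For 6 members an effect had opposite signs in the 2 pairs and the pairs lay at least 0.32 apart in log2; each pair is 1 library against 1, so these differences were not tested. The let-7a effect differed in sign for GALNT1, by 0.51 (0.24 with siMYCN and -0.27 with siCon). It did so for ZNF322 by 0.37 (0.12 and -0.26). For CLDN12 the difference was -0.35 (-0.28 and 0.071). The siMYCN effect differed in sign for HIC2, by -0.87 (-0.68 with let-7a and 0.20 with miRCon). CDC34 differed by -0.34 (-0.13 and 0.22), and PARD6B by -0.33 (-0.32 and 0.0032). Without the condition on signs, 5 of 46 members had a difference this far below 0, against 15.8% of all tested genes. This far above 0 were 2 members, against 13.4%. The share of all tested genes that also had opposite signs was not counted.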

How the results depend on the processing

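No paired analysis was possible because each group holds 1 library and the labels give no replicate numbers; for the same reason no library could be left out of a group. The median let-7a effects of the measured members stayed below 0 under all 5 alternatives for values and filters, from -0.28 to -0.19 with siMYCN and from -0.18 to -0.15 with siCon; with a pseudocount of 5 the first was -0.19. Fewer members are measured at a mean of at least 20 (27). Of these, 20 were lower with let-7a in both pairs (35.9% of all genes at that level) and 14 had both let-7a libraries below (17.1%). At least 0.32 below 0 in both pairs were 4 (1.15%). With siMYCN, 9 were lower in both pairs and 0 were 1.5-fold lower. The median siMYCN effect was 0.056, beside 0.050 over all genes at that level. With a pseudocount of 5, 3 were at least 0.32 below 0 with let-7a (1.02% of all tested genes) and 0 were 1.5-fold lower with siMYCN. With no filter 5 of 58 were higher with let-7a in both pairs. A size of 0.32 in log2 in place of 1.5-fold counted 9 members lower with let-7a (2.03% of all tested genes). With siMYCN it counted 3 lower (5.79%) and 3 higher (10.7%), and a fold of 2 counted 0 and 0. Where a count here has no share beside it, the share over all genes was not counted in that setting. Rescaling turned the median siMYCN effect to -0.044, and left 28 members lower with let-7a in both pairs (26.7% of all tested genes) and 18 with both let-7a libraries below (12.4%). It left 6 members at least 0.32 below 0 with let-7a in both pairs (1.67%).

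For siMYCN, limma called 0 members with no filter, 0 without a trend, 2 at a mean of at least 20 and 3 after rescaling, against 1 in the setting reported. Over all genes it called 0 with no filter (2452 at an unadjusted p under 0.05), 0 without a trend (2221), 506 at a mean of at least 20 and 751 after rescaling (343 higher and 408 lower), against 320 (193 higher and 127 lower). For let-7a it called 0 in every setting run, with 466 to 1165 genes at an unadjusted p under 0.05. With the transcript of most coding sequence, the 7mer-A1 median was -0.16 over 3 members. The cause of these shifts was not tested. Of 157 let-7a effects of 24 named members under the alternatives, 2 crossed 0 by small amounts, both after rescaling (SLC20A1, 0.0005, and GALNT1, 0.015). Without replicates or read depth, small effects such as these cannot be separated from the variation between libraries.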
